A study of Mus musculus with 180 samples.

Results

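Oxidative phosphorylation runs on 5 protein complexes of the inner mitochondrial membrane, and most of their subunits are encoded in the nucleus. Their genes were taken from the count table by symbol: the Ndufa, Ndufb, Ndufc, Ndufs and Ndufv genes of complex I, Sdha to Sdhd of complex II, the Uqcr genes of complex III, Cox4 to Cox8 of complex IV and the Atp5 genes of complex V. Of 54429 genes, 88 carried such a symbol, and 87 had a count in at least 90 of the 180 libraries and were kept. Cox8c was left out, with a count in 8 libraries and none above 6. Just inside the limit were Cox8b with a count in 132 libraries, Cox4i2 in 157 and Ndufa11b in 167. Cyc1 of complex III and Ndufab1 of complex I lie outside this symbol rule. Counts of core subunits below cover only genes among the 87. The 87 genes comprised 38 of complex I, 4 of complex II, 8 of complex III, 18 of complex IV, 17 of complex V, and the pair Ndufa4 and Ndufa4l2, which is given apart because NDUFA4 is now placed in complex IV.

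The libraries came from 30 male mice, each with 6 libraries. The mice came from a cross of the RiboTag strain B6N.129-Rpl22tm1.1Psam/J with the Camk2a-cre line T29-1Stl/J, a Tg(Camk2a-cre) transgene on a B6.Cg background, so that Cre made under the Camk2a promoter switched on an HA-tagged ribosomal protein Rpl22 in Camk2a-expressing neurons. Hippocampal homogenate was spun into a supernatant, called cytosolic here, and a pellet, called membrane. From each fraction, ribosomes were captured with an anti-HA antibody (the Camk2a capture) or with an antibody against ribosomal protein S6 phosphorylated at residues 244-247 (the pS6 capture), and a further portion was sequenced without capture (Input). The pS6 capture is not limited to Cre-expressing cells. The mice had contextual fear conditioning (CFC) or not (NoCFC), followed by sleep or sleep deprivation (SD), with 8 mice in NoCFC Sleep, 7 in NoCFC SD, 8 in CFC Sleep and 7 in CFC SD. The labels call the tissue brain, and the series title names the hippocampus.

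The total count per library ran from 11980405 to 26953695, with a mean of 18838648. Markers of excitatory neurons were higher in the Camk2a capture than in Input (5 of 6 in the cytosolic fraction and 6 of 6 in the membrane fraction), while all tested markers of inhibitory neurons, astrocytes, oligodendrocytes, microglia and blood were lower. In the pS6 capture, all 4 blood markers were higher than in Input, and no astrocyte, oligodendrocyte or microglia marker was. Mice 1 to 11 were all NoCFC and mice 12 to 22 all CFC, whereas mice 23 to 30 held 2 of each group. The labels name no batch, and these runs of mouse numbers were used in its place. In 6 libraries the SD of the genes' log2 deviations from their type's median was over 1.5 times the median of that SD for the type: 1 cytosolic Input, 3 membrane Input, and both pS6 libraries of CFC SD mouse 19. The counts of genes called below stayed within 1.5 times of their value without them in all 31 comparisons that used any of these libraries.

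Complex I takes electrons from NADH, complex II takes them from succinate, and both pass them to ubiquinone. Complex III moves them on to cytochrome c and complex IV to oxygen, and complex V, the ATP synthase, uses the proton gradient to make ATP. The large catalytic subunits bind the cofactors, while many of the remaining subunits are small proteins that stabilise or assemble the complexes. Neurons depend heavily on this pathway to pay for ion pumping and synaptic transmission. Proteins made on cytosolic ribosomes are imported into mitochondria, and for some of them translation takes place at the mitochondrial surface, so their mRNAs can sediment with mitochondria and other membranes.

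The coding sequences below, read on GRCm38 with the GENCODE M21 gene models, are those of the genes on which the results turn. Start and stop codons are in capitals. The shortest coding sequences are shown first, because coding length and the difference between captures moved together. They are those of Atp5e (the epsilon subunit of the F1 head, chr2:174461072-174464105, minus strand, 159 bases), Uqcr11 (a small subunit of complex III, chr10:80402997-80406830, minus strand, 171 bases), Atp5mpl (a small subunit in the membrane part of the ATP synthase, chr12:111961375-111966977, minus strand, 177 bases) and Cox7c (a small subunit of complex IV, chr13:86044816-86046904, minus strand, 192 bases).
Atp5e: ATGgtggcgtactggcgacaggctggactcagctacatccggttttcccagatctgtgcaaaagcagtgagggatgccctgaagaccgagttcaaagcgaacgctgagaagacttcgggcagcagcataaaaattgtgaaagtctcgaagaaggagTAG
Uqcr11: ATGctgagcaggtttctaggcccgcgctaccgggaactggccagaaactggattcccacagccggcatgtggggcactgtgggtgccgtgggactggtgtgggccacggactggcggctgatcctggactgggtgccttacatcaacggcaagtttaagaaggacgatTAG
Atp5mpl: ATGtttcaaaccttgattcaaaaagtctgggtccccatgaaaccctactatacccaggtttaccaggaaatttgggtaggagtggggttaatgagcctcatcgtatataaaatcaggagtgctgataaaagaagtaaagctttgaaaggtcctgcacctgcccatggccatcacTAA
Cox7c: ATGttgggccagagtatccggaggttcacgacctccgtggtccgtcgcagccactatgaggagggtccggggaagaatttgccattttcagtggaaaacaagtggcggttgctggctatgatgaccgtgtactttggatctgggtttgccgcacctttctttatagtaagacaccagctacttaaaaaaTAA
The paralogs Cox6a1 (chr5:115345642-115348981, minus strand, 339 bases, of which the first 300 are printed) and Cox6a2 (chr7:128205435-128206387, minus strand, 294 bases) encode alternative forms of a complex IV subunit, the second of them best known from heart and skeletal muscle. They are shown because the captures separated them most clearly. Their coding sequences were identical at 193 of 290 aligned bases (66.6%).
Cox6a1: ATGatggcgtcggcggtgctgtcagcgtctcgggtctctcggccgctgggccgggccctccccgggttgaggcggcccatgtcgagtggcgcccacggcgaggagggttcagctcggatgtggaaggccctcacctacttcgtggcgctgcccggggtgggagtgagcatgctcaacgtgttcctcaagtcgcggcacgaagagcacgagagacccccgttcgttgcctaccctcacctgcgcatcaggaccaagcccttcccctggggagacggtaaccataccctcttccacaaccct
Cox6a2: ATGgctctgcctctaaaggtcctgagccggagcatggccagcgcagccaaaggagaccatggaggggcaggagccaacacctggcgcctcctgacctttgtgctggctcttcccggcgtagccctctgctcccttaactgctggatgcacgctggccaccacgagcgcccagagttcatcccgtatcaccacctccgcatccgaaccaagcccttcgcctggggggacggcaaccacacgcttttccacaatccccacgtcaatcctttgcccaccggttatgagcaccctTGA
The first 90 bases of Atp5b (the catalytic beta subunit of ATP synthase, chr10:128083273-128090391, plus strand, 1590 coding bases) and of Uqcrc1 (a core subunit of complex III, chr9:108936633-108949623, plus strand, 1443 coding bases) are given because these long genes lay on opposite sides of the fractionation. Each encodes a protein with a cleaved presequence for mitochondrial import at its start.
Atp5b: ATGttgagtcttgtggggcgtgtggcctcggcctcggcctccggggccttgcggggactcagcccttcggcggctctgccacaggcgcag
Uqcrc1: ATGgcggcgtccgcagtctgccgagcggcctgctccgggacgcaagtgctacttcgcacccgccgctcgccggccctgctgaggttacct

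Compared per length, as counts scaled to the library total and the exon length (RPKM, mean of all 180 libraries), Cox8a was the highest of the genes at 1256, followed by Cox6a1 at 943, Cox6b1 at 563 and Cox4i1 at 439. All these encode subunits of complex IV. Next came Atp5b at 355 and Atp5a1 at 339, the beta and alpha subunits of the F1 head. The median gene was at 75.3 RPKM in complex I, 102 in complex II, 134 in complex III, 74.6 in complex IV and 80.1 in complex V. Within complex IV the mean RPKM ran from 0.939 to 1256, and its lowest genes were the minor paralogs described further on. In all, 11 of the 87 genes averaged under 5 CPM, a gene's count scaled to a library total of 1000000. Exons of 28 of the 86 genes matched to a single gene model overlap another gene. Cox4i1, Cox5a, Cox6a2, Atp5a1, Ndufs3, Ndufb2, Uqcrc2 and Ndufa4l2 are among these, and whether the counting used strand is not given in the sources used here. Cox6c2, Ndufa11b, Ndufb4c and Ndufs6b are annotated as processed pseudogenes, so their reads cannot be told from those of their parent genes with confidence.

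Together the 87 genes took a median of 1.70% of all counts in the cytosolic Camk2a capture, 1.36% in the membrane Camk2a capture, 2.24% and 1.88% in the pS6 captures, and 1.65% and 1.20% in Input (cytosolic and membrane in each case). In CPM, the 30 cytosolic pS6 libraries lay between 20435 and 25920 with a median of 22400. All of them were above the 30 cytosolic Camk2a libraries, at 15267 to 20327, and the 30 cytosolic Input libraries, at 15244 to 19352. The membrane libraries ran from 16071 to 22442 CPM for pS6, from 11494 to 15399 for Camk2a and from 10792 to 13265 for Input, so pS6 was again above both without overlap. Within each kind of library, the median of the membrane fraction was below that of the cytosolic fraction.

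The complexes did not share this order. Complex V fell from a median of 7019 CPM in the cytosolic to 4358 in the membrane Camk2a capture, from 7042 to 4347 in the pS6 capture, and from 6220 to 3365 in Input. Complex I was at 4620 and 3565 CPM in the Camk2a capture, 5981 and 4720 in the pS6 capture, and 4455 and 2940 in Input (cytosolic and membrane). The medians of complex IV went the other way, at 2330 and 3010 CPM in the Camk2a capture, 5397 and 6389 in the pS6 capture, and 2892 and 3348 in Input. Complex II had its highest median in the cytosolic Camk2a capture (1195 CPM) and its lowest in the membrane pS6 capture (676 CPM). Complex III had 1453 and 1731 CPM in the Camk2a capture, 2266 and 2073 in the pS6 capture, and 1428 and 1324 in Input. A share of counts depends on everything else in the library: the mitochondrially encoded genes alone took a median of 7.51% of counts in membrane Input and 0.0139% in the cytosolic Camk2a capture.

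**Figure D1:**
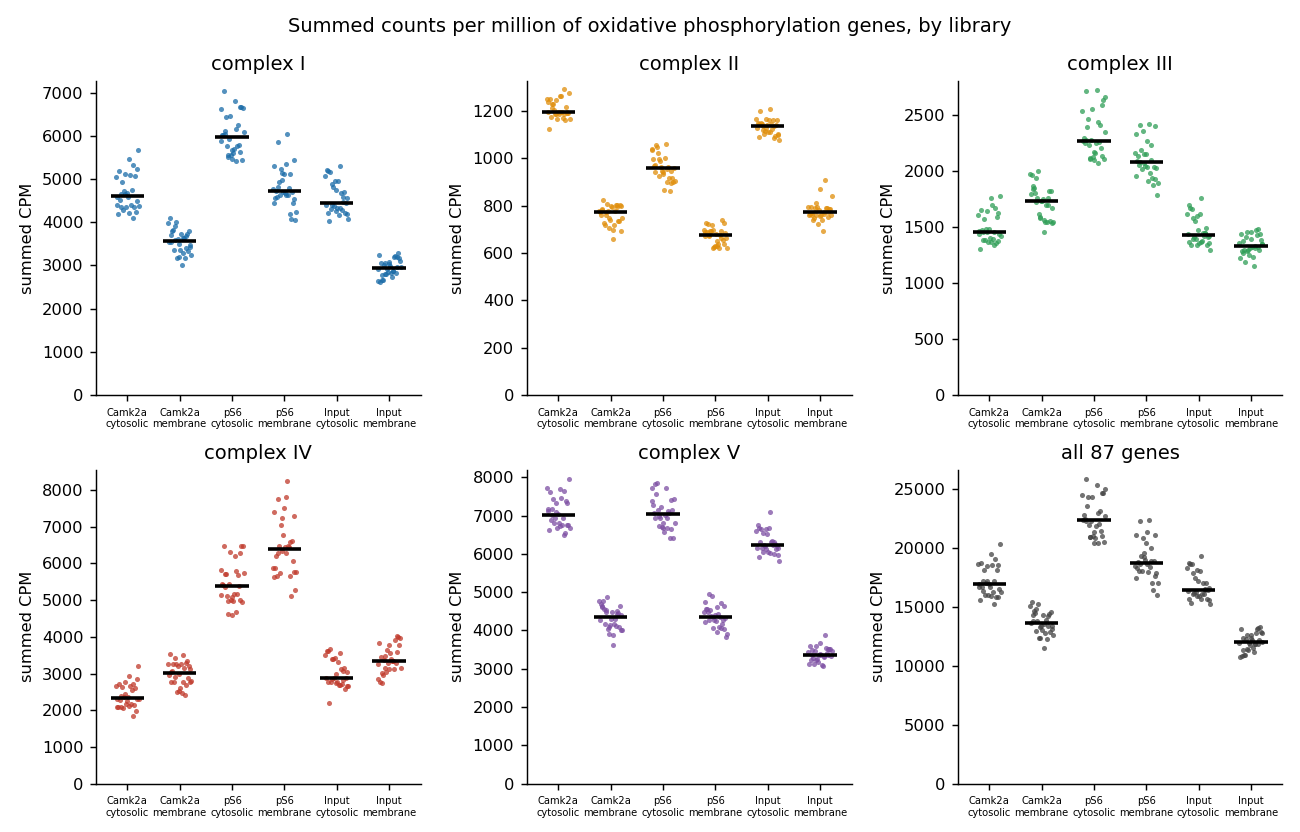
Summed CPM of the genes of each complex (vertical axis, linear, starting at 0) in each of the 180 libraries, by library type (horizontal axis); each point is 1 library and each bar the median of 30 mice. Complex V drops from the cytosolic to the membrane fraction in all 3 kinds of library (7019 to 4358 CPM in the Camk2a capture), the median of complex IV rises (5397 to 6389 CPM in the pS6 capture), and for all 87 genes together the pS6 libraries stand above the others of the same fraction.

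Membrane and cytosolic fractions were compared within each kind of library (30 libraries in each fraction) with edgeR's quasi-likelihood test and Benjamini-Hochberg adjustment over all genes tested. Here and in the comparisons of captures, libraries of the same mouse entered the fit as separate samples. Counts from fits with the mouse as a block are in the closing section. A gene is called where the adjusted p is below 0.05, and fitted values are log2 fold changes ± SE after scaling of the libraries. In the Camk2a capture, 27 of 85 genes tested were higher in the membrane fraction and 47 lower, beside 43.1% and 47.1% of all genes. In the pS6 capture, 23 of 86 were higher and 48 lower (42.1% and 43.4% of all genes), and in Input 18 of 85 were higher and 58 lower (40.3% and 48.3%). The median log2 fold change was -0.24, -0.21 and -0.46 in the 3 kinds of library, where that of all genes was -0.07, -0.03 and -0.12. At least 2-fold differences made up a smaller share of the members than of all genes: 6 members were that much higher and 1 lower in the Camk2a capture (27.9% and 10.2% of all genes), 3 and 2 in the pS6 capture (25.3% and 9.96%), and 3 and 5 in Input (22% and 8.97%). Of 85 genes tested in every kind of library, 17 were higher in the membrane fraction in all of them, 44 were lower in all of them, and 5 had calls in opposite directions. No share of all genes is given beside these joint counts, so they are not read as particular to the members. In raw CPM, all 30 membrane libraries were below all 30 cytosolic libraries for 34 of 87 genes in the Camk2a capture, 28 in the pS6 capture and 50 in Input, beside 27.6%, 20% and 27% of all genes tested. The reverse held for 3, 3 and 2 genes, beside 18.3%, 12.5% and 14.5%.

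Complex V was the most uniformly cytosolic of the complexes: 13 of 17 genes were lower in the membrane fraction in the Camk2a and pS6 captures and 15 of 17 in Input, and 13 were lower in all 3. Atp5b ran from 2276 to 2753 CPM with a median of 2475 in the cytosolic Camk2a capture and from 904 to 1243 with a median of 1107 in the membrane Camk2a capture. In the pS6 capture it ran from 1284 to 1870 CPM (median 1556) against 650 to 996 (median 840), and in Input from 1904 to 2325 (median 2068) against 869 to 1262 (median 980). The fractions did not overlap in any kind of library, and Atp5b was lower in the membrane fraction in 30 of 30 mice each time. Its fitted differences were -0.92 ± 0.02 in the Camk2a capture (adjusted p = 7.994e-48), -0.66 ± 0.03 in the pS6 capture and -0.80 ± 0.02 in Input. Atp5f1, a subunit of the peripheral stalk that holds the F1 head in place, was at -0.95, -0.77 and -0.98. Atp5s, a factor that couples the head to the membrane part, had the lowest value of the complex in both captures, at -1.14 and -1.25, and was at -0.77 in Input. The 3 genes for the c ring, the rotor that the protons turn, encode the same mature protein with different presequences. All 3 were lower in the membrane fraction in every kind of library, with Atp5g1 at -0.40, -0.51 and -0.82, Atp5g2 at -0.52, -0.29 and -0.73, and Atp5g3 at -0.80, -0.86 and -0.97.

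Atp5h, another peripheral stalk subunit, departed from the rest of complex V. It went from a median of 183 CPM (162 to 242) in the cytosolic to 312 CPM (238 to 395) in the membrane Camk2a capture. In the pS6 capture the medians were 216 CPM (186 to 263) and 266 CPM (220 to 346), and in Input 192 CPM (163 to 252) and 162 CPM (134 to 195). The CPM of Atp5h were thus higher in the membrane fraction in 30 of 30 mice in the Camk2a capture, in 29 of 30 in the pS6 capture and in 2 of 30 in Input. Its fitted values were 0.99 ± 0.05 and 0.55 ± 0.04 in the captures, both called, and -0.03 ± 0.04 in Input, which was not (adjusted p = 0.4302). Atp5a1 was slightly higher in the membrane fraction of the captures, at 0.18 and 0.17, and lower in Input at -0.10.

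In complex IV, more genes were higher than lower in the membrane fraction. In the Camk2a capture 11 of 17 genes were higher and 3 lower, and in the pS6 capture 9 of 18 were higher and 3 lower. In Input 8 of 17 were higher and 4 lower. The number higher was near the share of all genes given above in the pS6 capture and Input. The number lower was below that share in each kind of library. Cox6a1 had a median of 262 CPM (188 to 364) in the cytosolic and 597 CPM (465.9 to 729) in the membrane Camk2a capture. In the pS6 capture it was at 638 CPM (507 to 807) and 1280 CPM (1008 to 1613), and in Input at 384 CPM (259 to 491) and 754 CPM (614 to 909). The fractions did not overlap in any of the 3, and the fitted differences were 1.43 ± 0.06, 1.25 ± 0.05 and 1.21 ± 0.05, higher in 30 of 30 mice each. Cox8a, a small subunit, was at 0.95, 0.71 and 0.90, and Cox4i1, a subunit with a regulatory role in respiration, at 0.71, 0.72 and 0.41. Cox5a, a subunit that faces the mitochondrial matrix, went the opposite way, at -0.89 ± 0.05, -0.85 ± 0.05 and -1.24 ± 0.05. Its median was 130 CPM in the cytosolic and 60.7 CPM in the membrane Camk2a capture.

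Among genes whose average log2 CPM was 3 or more, the highest value was that of Uqcrc1 in complex III. It had a median of 320 CPM (262 to 415) in the cytosolic and 905 CPM (735 to 1092) in the membrane Camk2a capture. In the pS6 capture the medians were 256 CPM (205 to 315) and 636 CPM (442 to 806), and in Input 298 CPM (258 to 404) and 664 CPM (538 to 778). Every membrane library was above every cytosolic library of its kind. The fitted differences of Uqcrc1 were 1.74 ± 0.04 in the Camk2a capture (3.35-fold, adjusted p = 1.132e-48), 1.55 ± 0.03 in the pS6 capture and 1.39 ± 0.04 in Input. Its partner core subunit Uqcrc2 was lower in the membrane fraction, at -0.36, -0.24 and -0.39, and so was Uqcrfs1, the Rieske iron-sulfur protein, at -0.44, -0.43 and -0.72. Across complex III, 2 of 8 genes were higher and 5 lower in the Camk2a capture, 1 and 6 in the pS6 capture, and 1 and 7 in Input.

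Complex I held genes on both sides, with 11 of 37 higher and 23 lower in the Camk2a capture, 9 and 22 in the pS6 capture, and 7 and 28 in Input. Ndufa1, a small membrane-spanning subunit, was the highest called gene of the complex in the captures at 0.92 and 0.61, and was at 0.41 in Input, where Ndufb9 was the highest at 0.60. Ndufs3, a core subunit, had a median of 142 CPM (122 to 174) in the cytosolic and 63.3 CPM (51.1 to 72.4) in the membrane Camk2a capture, with no overlap, and was at -0.95 ± 0.04, -0.74 ± 0.04 and -1.04 ± 0.03. Ndufb2, an accessory subunit, was the lowest in the pS6 capture and in Input, at -0.81 and -1.05. Of the 7 core subunits, Ndufs1, which carries iron-sulfur clusters, was the 1 that was higher in the membrane fraction in each kind of library, at 0.33, 0.33 and 0.47. In complex II, Sdhc and Sdhd, the membrane anchors, were lower at -0.9986 and -0.88 in the Camk2a capture, -0.51 and -0.73 in the pS6 capture, and -0.69 and -0.88 in Input, whereas the flavoprotein Sdha was at -0.04 (not called), 0.08 and 0.20. Scaling bears on small values such as these: the raw CPM of Sdha were lower in the membrane fraction in 30, 23 and 21 of 30 mice. Raw CPM lack the library scaling that the fitted values have, and which comes closer to the RNA of the fractions was not tested.

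The fractions also differed in what else they held. All tested mitochondrially encoded genes were higher in the membrane fraction, with median log2 fold changes of 6.35 in the Camk2a capture, 4.93 in the pS6 capture and 3.21 in Input. Astrocyte markers were at medians of 4.84, 3.40 and 3.03, and microglia markers at 4.46, 3.29 and 2.78. Their part in the values above was not tested. In bulk samples such as these, fewer cells of a type and less RNA per cell cannot be told apart. Within the lists of related genes, the tricarboxylic acid cycle enzymes had 3 of 13 genes higher and 9 lower in the membrane libraries of the Camk2a capture. Of the assembly factors of the complexes, 6 of 42 were higher and 32 lower.

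Whether the fraction difference itself depended on the capture was tested with an interaction term. The difference between fractions was more positive in the Camk2a capture than in Input for 45 genes and more negative for 11 (28.1% and 28.2% of all genes). For pS6 against Input the counts were 60 and 4 (31.6% and 16.1%), falling to 21 and 8 where no filter on low counts was applied. For pS6 against Camk2a they were 28 and 8 (30.1% and 20.2%), but this split depended on the scaling: it was 19 and 17 with relative log expression factors and 9 and 41 with upper-quartile scaling, so no direction is given for that comparison as a whole. Upper-quartile scaling turned the split of Camk2a against Input to 58 and 5. Atp5h led complex V with interactions of 0.89 ± 0.06 for Camk2a against Input and 0.58 ± 0.06 for pS6 against Input, and -0.33 ± 0.06 for pS6 against Camk2a. Ndufs4, an accessory subunit of complex I, was at 0.43 ± 0.04 in each of the first pair of comparisons. Its fitted fraction difference was 0.71 in the Camk2a capture, 0.59 in the pS6 capture and 0.15 in Input.

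The pS6 capture was compared with Input in the same fraction. In the cytosolic fraction, 66 of 86 genes tested were higher in the pS6 capture and 11 lower, beside 40.5% and 44.6% of all genes, and 24 were at least 2-fold higher, beside 11.4%. Among membrane libraries, 76 of 86 were higher and 5 lower (35.4% and 40.1% of all genes), and 32 were at least 2-fold higher (7.23%). The median log2 fold change was 0.62 and 0.80, and that of all genes -0.04 in both. In raw CPM, all pS6 libraries were above all Input libraries for 37 of 87 genes (cytosolic) and 52 (membrane), beside 10.3% and 6.41% of all genes tested, and below them for 3 and 0 genes, beside 12.6% and 2.49%. The members called in both fractions comprised 65 higher, 5 lower (Atp5b, Ndufa4l2, Sdha, Sdhc and Uqcrc1) and 2 with opposite calls (Ndufa9 and Ndufs3). These joint counts are for the members only, without a share of all genes.

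Atp5e rose most in complex V. It had a median of 311 CPM (266 to 399) in the cytosolic pS6 capture against 98.2 CPM (72.5 to 136) in Input and 70.4 CPM (57.0 to 103) in the Camk2a capture. In the membrane fraction the medians were 134 CPM (105 to 197), 41.5 CPM (30.2 to 57.3) and 35.0 CPM (24.3 to 44.4). Within each fraction, every pS6 library was above every library of the other kinds. The fitted differences of pS6 from Input were 1.71 ± 0.06 (3.28-fold, adjusted p = 8.06e-36, higher in 30 of 30 mice) and 1.67 ± 0.06. Atp5mpl followed at 1.67 and 1.66, with cytosolic medians of 251 CPM in the pS6 capture (195 to 295) and 80.0 CPM in Input (57.7 to 103).

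Small subunits led the other complexes too. In complex IV, Cox7b was at 1.497 and 1.59 (cytosolic and membrane), and Cox7c at 1.41 and 1.30, with cytosolic medians of 205 CPM in the pS6 capture (168 to 262), 81.1 CPM in Input (55.5 to 115) and 56.4 CPM in the Camk2a capture (46.2 to 88.0). In complex III, Uqcrq was at 1.37 and 1.495, Uqcr10 at 1.31 and 1.59, and Uqcr11 at 1.21 and 1.39. Ndufa1 led complex I at 1.31 and 1.46. Ndufa4 had a cytosolic median of 770 CPM (665 to 902) in the pS6 capture and 332 CPM (268 to 410) in Input, and was at 1.27 and 1.41. By complex, the genes higher in the cytosolic and membrane fractions were 30 and 35 of 37 in complex I, 1 and 2 of 4 in complex II, 5 and 6 of 8 in complex III, 16 and 17 of 18 in complex IV, and 13 and 15 of 17 in complex V.

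Several large catalytic subunits were lower. Sdha had a cytosolic median of 347 CPM (284 to 430) in the pS6 capture and 477 CPM (433 to 580) in Input, and differed by -0.37 ± 0.03 (cytosolic) and -0.56 ± 0.03 (membrane), lower in 30 of 30 mice in both. Atp5b was at -0.33 ± 0.03 and -0.26 ± 0.03. Atp5a1 was at -0.23 and at -0.02, the second not called. Of the 7 core subunits of complex I, 3 were higher and 2 lower among cytosolic libraries, while among membrane libraries 5 were higher and 0 lower. The 3 core subunits of complex III had 0 higher and 2 lower among cytosolic libraries, and 1 higher (Uqcrfs1 at 0.27) and 1 lower (Uqcrc1 at -0.08) among membrane libraries. One of the cytosolic calls, Uqcrc2 at -0.07, lost its sign under upper-quartile scaling, as given in the closing section.

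The Camk2a capture was compared with Input in the same way. In the cytosolic fraction, 36 of 85 genes were higher and 28 lower (38.6% and 43.1% of all genes), with a median of 0.03, and among membrane libraries 59 were higher and 15 lower (40.3% and 42.3%), with a median of 0.26. All 7 core subunits of complex I were higher in both fractions. Ndufv1, which binds NADH, led complex I in the cytosolic fraction with a median of 386 CPM (345 to 424) against 289 CPM (260 to 326) in Input, without overlap. Its fitted differences were 0.57 ± 0.03 and 0.77 ± 0.03. All 3 core subunits of complex III among the members were higher in both fractions as well, Uqcrc2 most, at 0.67 and 0.69. Further rises were those of Atp5f1 at 0.54 and 0.55, Sdhb, the iron-sulfur subunit of complex II, at 0.43 and 0.58, Atp5b at 0.39 and 0.25, and Ndufs4 at 0.43 and 0.97. Atp5h was at 0.08 (cytosolic, not called) and 1.09 (membrane). Of 85 genes tested in both fractions, 34 were higher in both, 12 lower in both and 10 had opposite calls, given without a share of all genes. Among the lower ones were the small subunits Cox8a at -0.53 and -0.50, Cox6a1 at -0.44 and -0.23, Cox7c at -0.39 and -0.29, and Atp5e at -0.36 and -0.18. The small complex III subunits Uqcr10, at -0.22 and 0.23, and Uqcr11, at -0.20 and 0.18, were lower in cytosolic and higher in membrane libraries, as was Ndufa1 at -0.23 and 0.26. Complex IV had 2 of 17 genes higher and 11 lower among cytosolic libraries.

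The captures were also set against each other directly. In the cytosolic fraction, 57 of 85 genes were higher in the pS6 than in the Camk2a capture and 22 lower (47.2% and 42.6% of all genes), and 27 were at least 2-fold higher (22.3%). Among membrane libraries, 62 of 86 were higher and 20 lower (44.7% and 37.6%), and 26 at least 2-fold higher (16.5%). The genes lower in the pS6 capture in both fractions numbered 18, among them Atp5a1, Atp5b, Atp5c1, Atp5f1, Sdha, Sdhb, the 3 core genes of complex III, and Ndufs1, Ndufs3, Ndufs7, Ndufs8 and Ndufv1 of the complex I core. That joint count, too, stands without a share of all genes. Atp5b was at -0.83 and -0.52 there, and Atp5e was at 1.96 ± 0.06 and 1.84 ± 0.06. The 3 kinds of comparison share libraries with one another, so they are not independent of each other.

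These values were ordered by coding length. In the cytosolic fraction, 23 of the 25 genes with at most 300 coding bases were higher in the pS6 capture than in Input, 21 of them at least 2-fold, with a median log2 fold change of 1.27. Of the 37 genes with more than 300 and up to 600 coding bases, 33 were higher, with a median of 0.60. Of the 20 genes with over 600 coding bases, 6 were higher and 8 lower, with a median of -0.01. All tested genes of the same length classes had medians of 0.82, 0.40 and -0.20, so the order by length was not limited to these genes. Across the 82 genes with a coding length, Spearman's rho between length and the difference was -0.81, and across all tested genes -0.41. Between pS6 and Camk2a in the cytosolic fraction, the genes with at most 300 bases were higher in 25 of 25 cases (median 1.37), and those over 600 bases lower in 18 of 20 (median -0.55), where all genes of these classes had medians of 1.23 and -0.19. Camk2a against Input ran the other way in the cytosolic fraction, with 19 of 24 short genes lower and 19 of 20 long genes higher. No value of all genes of these length classes is given beside these counts. Among membrane libraries, 59 of 85 members of any length were higher and 15 lower. The rho of Camk2a against Input was 0.68 across the members but 0.10 across all tested genes in the cytosolic fraction. In the membrane fraction it was 0.48 and 0.06. These correlations run across genes, which share libraries and depth and are not independent, and are given as a description.

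Ndufv3, a complex I subunit with 1407 coding bases in the gene model used, was the exception among the long genes, at 1.07 and 1.14 for pS6 against Input; it was picked out after its values were seen. All 30 mice had more of it in the pS6 capture in both fractions. Within single libraries, the summed CPM of the 25 short genes divided by that of the 20 long genes had a median of 0.307 in the cytosolic Camk2a capture (0.256 to 0.394), 0.453 in Input (0.306 to 0.579) and 1.17 in the pS6 capture (0.955 to 1.56). In the membrane fraction these were 0.422 (0.346 to 0.604), 0.580 (0.454 to 0.729) and 1.39 (1.04 to 2.26). The pS6 libraries were above all others of their fraction. Across the 30 libraries of a type, the well-expressed short genes moved with one another, with a median pairwise Pearson r from 0.87 in membrane Input to 0.95 in the cytosolic Camk2a capture. For the long genes it lay between 0.28 and 0.59. Between short and long genes it was 0.68 in the cytosolic Camk2a capture, 0.27 in cytosolic Input and 0.04 in the cytosolic pS6 capture, and in the membrane fraction 0.06, 0.08 and 0.17. The libraries of a type differ in depth and in the yield of the capture, and the part of either in these relations was not tested.

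**Figure D2:**
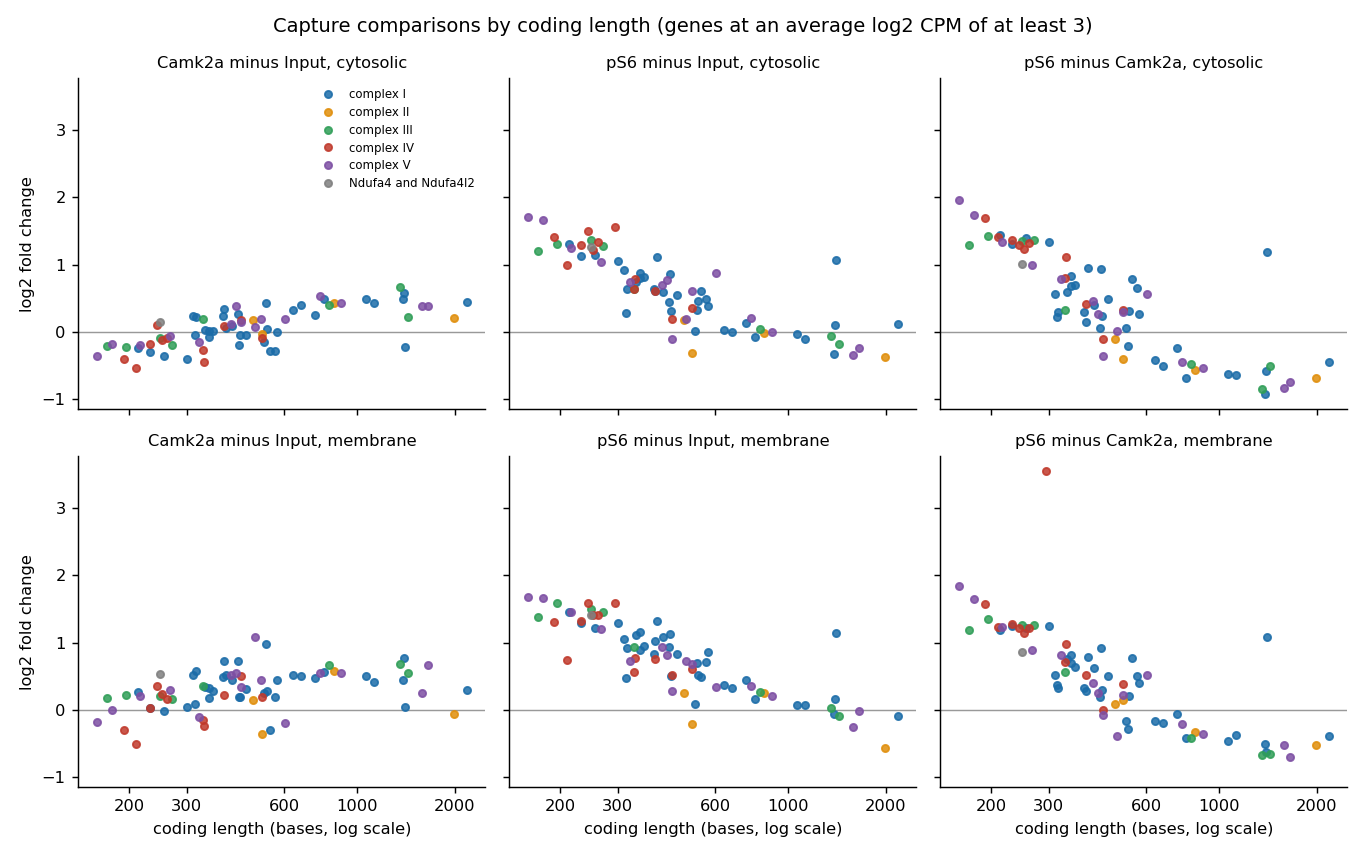
Log2 fold change between captures (vertical axis, the same scale in all panels) against coding length in bases (horizontal axis, log scale), for genes whose average log2 CPM was 3 or more, coloured by complex, in the cytosolic (top) and membrane (bottom) fraction. The short genes lie above 0 and the long genes near or below it in the pS6 comparisons, the order is reversed in the cytosolic Camk2a comparison with Input, and the lone high point at 1407 bases is Ndufv3.

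Several subunits have a paralog known from other tissues or cell types, and these low genes showed the widest differences between captures. Cox6a2 had a median of 0.192 CPM (0 to 0.521) in the cytosolic and 1.24 CPM (0.591 to 2.37) in the membrane Camk2a capture. In Input it was at 5.06 CPM (3.40 to 8.96) and 5.62 CPM (4.06 to 7.38), and in the pS6 capture at 14.3 CPM (10.4 to 19.9) and 16.5 CPM (12.1 to 24.4). The 3 kinds of library did not overlap in either fraction. Against Input, Cox6a2 was at -4.57 ± 0.14 and -1.96 ± 0.09 in the Camk2a capture (lower in 30 of 30 mice in both fractions) and at 1.56 ± 0.08 and 1.59 ± 0.07 in the pS6 capture (higher in 30 of 30). Relative to Cox6a1 in the same library, its median CPM was 0.0755% in the cytosolic Camk2a capture, 1.29% in Input and 2.23% in the pS6 capture. An exon of Cox6a2 overlaps one of Itgad.

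Ndufa4l2, a paralog of Ndufa4 that is induced by low oxygen and prominent in mural cells, had a median of 0.327 CPM (0 to 0.554) in the cytosolic Camk2a capture, 1.45 CPM (0.739 to 2.89) in the pS6 capture and 2.92 CPM (2.16 to 4.56) in Input. Unlike Cox6a2 it was lower than Input in both captures, at -3.12 and -1.86 in the Camk2a capture and at -0.88 and -0.74 in the pS6 capture (cytosolic and membrane). Cox4i2, the paralog of Cox4i1 linked to oxygen sensing, had no count in 23 of 30 cytosolic Camk2a libraries, where its highest value was 0.178 CPM. Its median was 0.467 CPM in the membrane Camk2a capture, 0.241 and 1.13 CPM in the pS6 capture, and 0.818 and 1.32 CPM in Input. Cox4i1 had at least 396 CPM in every library.

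Cox6b2 and Cox8b were set apart by single mice. Cox6b2, the testis form of Cox6b1, had a cytosolic median of 1.24 CPM in the pS6 capture, with a highest value of 16.5 CPM, and of 1.63 CPM in Input and 0.0691 CPM in the Camk2a capture. Cox8b, the muscle form of Cox8a, had pS6 medians of 0.695 and 0.947 CPM with highest values of 13.7 and 14.7 CPM, and a median of 0 CPM in both Camk2a fractions. The highest values of both genes came from the pS6 libraries of CFC SD mouse 22, where Cox6b2 was at 16.5 and 15.9 CPM. Next came NoCFC Sleep mouse 2 with Cox8b at 6.51 and 5.86 CPM and Cox6b2 at 10.01 and 6.80 CPM. No fold change is given for Cox8b, and for Cox6b2 the pS6 capture differed from Input by 0.46 ± 0.26 in the cytosolic fraction (not called) and 0.63 ± 0.18 in the membrane fraction. Cox7a1, the muscle form of Cox7a2, was at -0.71 and -0.61 for Camk2a against Input and at 1.07 and 1.09 for pS6 against Input. The coding sequences of the paralog pairs compared were 66.3% to 78.8% identical, and how reads that fit both were counted is not given in the sources used here.

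Markers of other cell types differed between the captures and Input too, and from Input to the pS6 capture they did not share a direction. Inhibitory neuron markers summed to a median of 122 CPM in the cytosolic Camk2a capture, 725 CPM in Input and 827 CPM in the pS6 capture, and in the membrane fraction to 452, 1235 and 1540 CPM. The 7 markers did not move together between Input and the pS6 capture, where 4 were higher and 2 lower in each fraction. Cytosolic medians in the Camk2a capture, Input and the pS6 capture were 2.44, 52.5 and 191 CPM for Pvalb, of fast-spiking interneurons, 13.2, 131 and 78.5 CPM for Gad2, a GABA-synthesising enzyme, and 1.27, 14.1 and 5.97 CPM for the neuropeptide Vip. Blood markers summed to cytosolic medians of 2.31, 49.3 and 135 CPM and to membrane medians of 22.9, 122 and 802 CPM in the same order. Astrocyte markers summed to 47.5, 582 and 200 CPM in the cytosolic fraction. The part of any of these cell types in the values of the paralogs, or of the small subunits above, was not tested.

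**Figure D3:**
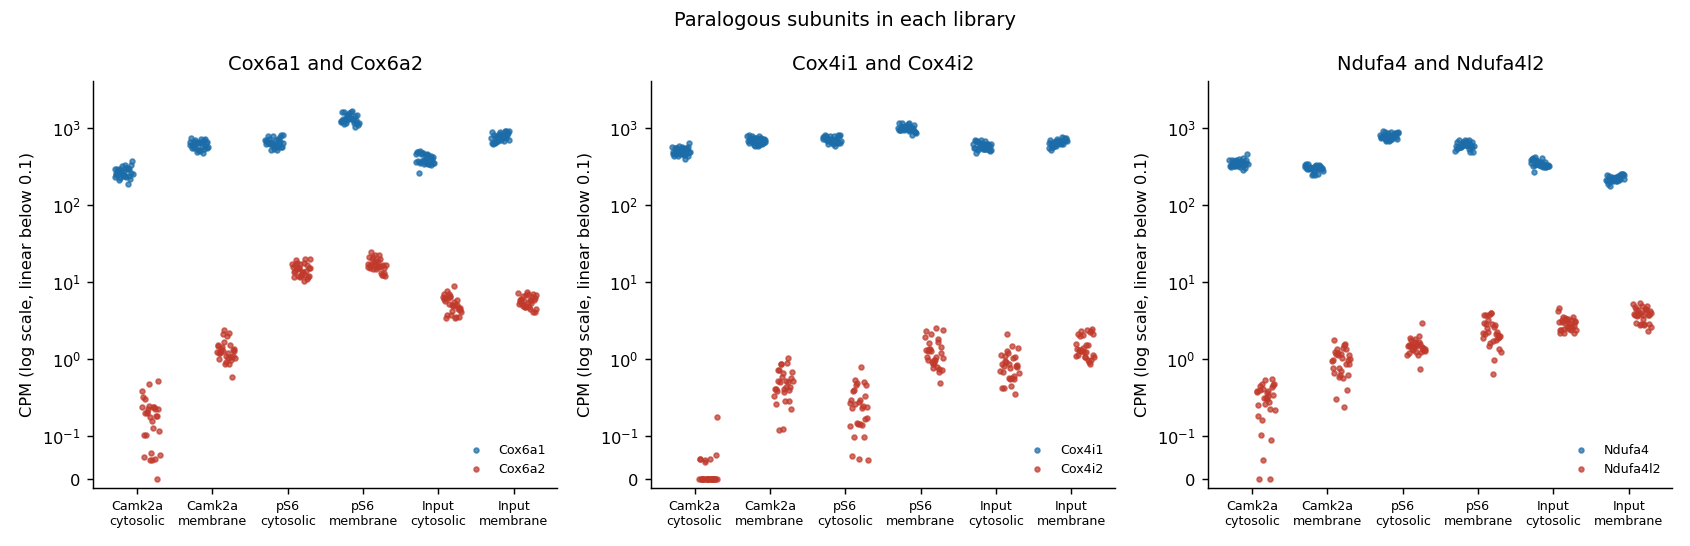
CPM (vertical axis, log scale, linear below 0.1) of 3 pairs of paralogs in each of the 180 libraries by library type (horizontal axis); each point is 1 library. Cox6a2 is highest in the pS6 captures and lowest in the Camk2a captures, the medians of Ndufa4l2 and Cox4i2 in the cytosolic captures are below those in cytosolic Input, and the main forms Cox6a1, Cox4i1 and Ndufa4 have at least 173 CPM in every library.

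Related mitochondrial genes were counted in the same way. Of the 13 tricarboxylic acid cycle enzymes, 2 were higher in the cytosolic pS6 capture than in Input and 9 lower, and 11 were higher and 1 lower in the Camk2a capture. Of 42 assembly factors of the complexes, 31 were higher and 9 lower in the pS6 capture, with a median of 0.28, and 23 higher and 11 lower in the Camk2a capture, with a median of 0.15. Of 12 regulators of mitochondrial gene expression, such as Ppargc1a and Tfam, 3 were higher and 6 lower in the pS6 capture, and 8 higher and 3 lower in the Camk2a capture. All mitochondrially encoded genes tested were lower than Input in both captures and both fractions.

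The training and sleep groups pose the question of how sleep loss and training alter these transcripts. SD was compared with Sleep in each library type, over both training groups (14 SD and 16 Sleep mice). By edgeR's quasi-likelihood test, 0 members were called in any of the 6 types: 0 of 81 in the cytosolic and 0 of 84 in the membrane Camk2a capture, 0 of 85 and 0 of 86 in the pS6 captures, and 0 of 85 and 0 of 82 in Input. Of all genes, 6.28%, 2.97%, 7.88%, 1.73%, 3.17% and 1.37% were called in the same order. At an unadjusted p under 0.05 there were 1, 5, 2, 7, 1 and 2 members. In the same order these were 1.24%, 5.95%, 2.35%, 8.14%, 1.18% and 2.44% of the members tested, beside 18.6%, 14.7%, 20.9%, 13.8%, 14.5% and 10.2% of all genes. DESeq2 called 1 member in the cytosolic Camk2a capture and 0 in the others.

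The median log2 fold change of the members was -0.02 in both Camk2a fractions, 0.00 and 0.07 in the pS6 fractions, and -0.01 in both Input fractions, with a median SE per gene of 0.05 to 0.06. Ndufb2 had the smallest p of the cytosolic Camk2a capture, with 0.15 ± 0.05 (adjusted p = 0.05811 by edgeR with Benjamini-Hochberg adjustment), and of membrane Input with 0.24 ± 0.08 (adjusted p = 0.1311). An exon of Ndufb2 overlaps those of Braf. In the membrane Camk2a capture the smallest p was that of Ndufv1, at -0.13 ± 0.05 (adjusted p = 0.1425, edgeR). For the 75 members with an average log2 CPM of 3 or more in the cytosolic Camk2a capture, the 95% intervals reached from -0.26 to 0.24, and for the 76 in the membrane pS6 capture from -0.22 to 0.33. Differences within these bounds are not excluded, and the test does not show that the groups were alike. Within runs of mouse numbers, the median SD difference in the cytosolic Camk2a capture was -0.03 (mice 1 to 11), -0.11 (12 to 22) and 0.11 (23 to 30), so it did not keep its sign.

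Summed CPM by group are given here for complex V in a single library type. In the cytosolic Camk2a capture complex V had medians of 7145 CPM in NoCFC Sleep (6536 to 7722), 7001 in NoCFC SD (6746 to 7434), 7059 in CFC Sleep (6679 to 7682) and 6756 in CFC SD (6494 to 7951). The 4 groups overlapped. The interaction of training and sleep called 0 members in each of the 6 types (0.0% of all genes in each) by edgeR, with 0 members at an unadjusted p under 0.05 in Camk2a and Input libraries, 4 in the cytosolic pS6 capture (4.71% of members, 4.23% of all genes) and 10 in the membrane pS6 capture (11.6% of members, 3.8% of all genes). DESeq2 called 0 members as well. The median interaction of the members was 0.12 in the cytosolic pS6 capture, with 70 of 85 above 0. In the membrane pS6 capture it was -0.17, with 70 of 86 below 0. The members share libraries and are not independent, and no median of all genes is given beside these. A dependence of the fraction difference on SD was called by edgeR for 0 members in the Camk2a capture, the pS6 capture and Input (0.0% of all genes in each), with 2 members in each at an unadjusted p under 0.05. A dependence of the capture difference on SD was called for 0 members in all 6 comparisons, with at most 1 member at an unadjusted p under 0.05. No share of all genes is given beside the unadjusted counts of these dependences on SD, so they are not read as few or many. Of all genes, 0.672% were called for pS6 against Input (cytosolic) and 0.111% (membrane), 0.586% and 0.0589% for pS6 against Camk2a, and 0.0122% and 0.0% for Camk2a against Input. DESeq2 called 0 members in these comparisons too.

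Training was compared in the same fits (15 CFC and 15 NoCFC mice). In the membrane Camk2a capture, 13 of 84 members were lower after CFC and 0 higher, beside 7.17% and 9.81% of all genes, and 6 members were called where no filter on low counts was applied. In the membrane pS6 capture, 8 of 86 were lower and 2 higher (8.75% and 8.1% of all genes), a split that was 8 and 5 with relative log expression factors and 8 and 7 by DESeq2. In the other 4 types 0 members were called by edgeR and by DESeq2, beside 0.148% of all genes in the cytosolic Camk2a capture, 0.133% in the cytosolic pS6 capture, 0.219% in cytosolic Input and 6.53% in membrane Input, with 1, 3, 3 and 2 members at an unadjusted p under 0.05 (1.24%, 3.53%, 3.53% and 2.44% of members, beside 7.71%, 6.81%, 9.12% and 21.5% of all genes). Since mice 1 to 11 were all NoCFC and mice 12 to 22 all CFC, training and run can be separated only in the 8 mice 23 to 30. With the run as a term in the fit, 0 members were called in either membrane capture.

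Atp5b in the membrane Camk2a capture had a median of 1203 CPM in NoCFC Sleep (1081 to 1243), 1149 in NoCFC SD (1120 to 1220), 1059 in CFC Sleep (928 to 1145) and 987 in CFC SD (904 to 1127). The CFC mice were mostly below the NoCFC mice, with some overlap. The fitted difference was -0.17 ± 0.03 (adjusted p = 0.001209, edgeR). In mice 23 to 30 alone it was -0.18, and between mice 12 to 22 and mice 1 to 11 it was -0.19. Uqcrc1 had medians of 1007 CPM (884 to 1092), 935 (838 to 1066), 885 (781 to 949) and 782 (735 to 847) in the same groups, with a fitted difference of -0.20 ± 0.04 (adjusted p = 0.002001, edgeR). Its values were -0.14 in mice 23 to 30 and -0.25 between the other runs. Ndufv1 was at -0.21 ± 0.05 (adjusted p = 0.001978, edgeR), with -0.17 in mice 23 to 30 and -0.25 between the other runs. Further lower members included Ndufa8, Ndufa9, Ndufa10, Ndufs3, Uqcrc2, Atp5c1, Atp5g3, Atp5l and Atp5o. Among them Atp5l rests on few counts, with a mean of 2.31 CPM over all 180 libraries and a median of 1.05 CPM in the CFC SD mice here.

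In the membrane pS6 capture the lower members included Atp5a1, Atp5b, Ndufa10, Ndufv1, Sdha, Uqcrc1 and Uqcrc2. Uqcrc1 had medians of 713 CPM in NoCFC Sleep (638 to 806), 675 in NoCFC SD (601 to 749), 591 in CFC Sleep (478 to 651) and 573 in CFC SD (442 to 634), and differed by -0.26 ± 0.05 (adjusted p = 0.000145, edgeR). That value was -0.09 in mice 23 to 30 and -0.37 between the other runs. Atp5b was at -0.19 ± 0.04, with -0.12 and -0.26. The higher members Atp5mpl, at 0.24 ± 0.07 (adjusted p = 0.02148, edgeR), and Ndufc2, at 0.19 ± 0.06, had values of 0.00 and 0.02 in mice 23 to 30 and of 0.28 and 0.21 between the other runs. Over all members, the median CFC difference in the membrane Camk2a capture was -0.04 in mice 23 to 30 (all genes -0.06) and -0.14 between mice 12 to 22 and mice 1 to 11 (all genes -0.02). In the membrane pS6 capture it was -0.06 (all genes -0.06) and 0.04 (all genes -0.02).

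Other lists differed between the CFC and NoCFC mice in these libraries, in the fits without the run as a term. Training and run are not separated in these values, and no values within runs are given for the lists. The shares of all genes called in the same comparisons are given with training above. In the membrane Camk2a capture, 3 of 6 astrocyte markers were called higher after CFC (median 0.37), as were 3 of 5 microglia markers (median 0.40), 2 of 6 oligodendrocyte markers (median 0.29) and 3 of 7 mitochondrially encoded genes (median 0.16). Of the tricarboxylic acid cycle enzymes, 1 of 13 was higher and 5 lower. In the membrane pS6 capture, all 4 blood markers were higher (median 0.52), and 7 of 13 tricarboxylic acid cycle enzymes were lower and 0 higher. The part of these in the values of the oxidative phosphorylation genes was not tested.

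**Figure D4:**
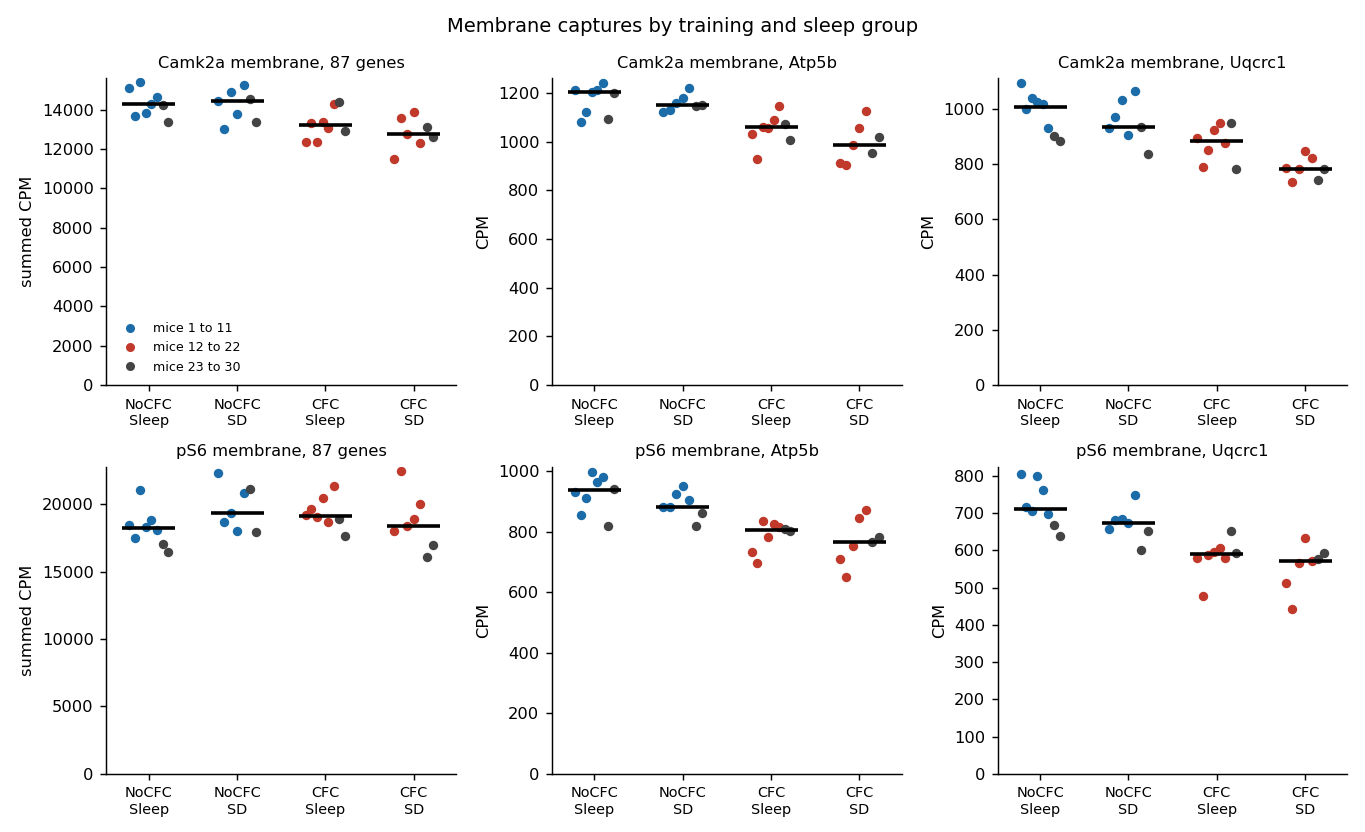
Summed CPM of the 87 genes and CPM of Atp5b and Uqcrc1 (vertical axes, linear, starting at 0) in the membrane captures by training and sleep group (horizontal axis); each point is 1 mouse, coloured by run of mouse numbers, and bars are medians. In the membrane Camk2a capture the medians of Atp5b run from 1203 CPM in NoCFC Sleep to 987 CPM in CFC SD, and the mice 1 to 11 and 12 to 22 each belong to 1 training group only.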

How the data were processed

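Hippocampal RNA of 30 mice was sequenced as 6 libraries a mouse. The authors deposited whole-number read counts per gene in 1 table of 54429 genes and 180 libraries. Per the submitters' processing notes, STAR 2.6.1a, featureCounts, MultiQC 1.6a0 and the build GRCm38.p6 were used. Their settings for strand and multi-mapping reads are not given in the sources used here. All columns matched a sample. Libraries that carry the same number were taken as the same mouse.

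From the counts, CPM (counts scaled to a library total of 1000000) and RPKM on the union of GENCODE M21 exons were computed. Genes were tested with edgeR 4.0.16 in R 4.3.3 (limma 3.58.1, statmod 1.5.0): filterByExpr, TMM scaling, a robust quasi-likelihood fit, and Benjamini-Hochberg adjustment over all genes tested, with calls at an adjusted p below 0.05 and a second rule of at least 2-fold. Training and sleep were fitted within each library type over the 4 groups, fractions within each kind of library, captures within each fraction, and interactions over the libraries they concern. Per-mouse counts of a direction compare raw CPM. For training and sleep within a library type, p-values measure the spread between these mice. The main fits that join library types entered libraries of the same mouse as separate samples. Their p-values measure the spread between libraries, not that of differences within a mouse. Libraries held 11980405 to 26953695 counts. Alternatives were relative log expression and upper-quartile scaling, no filter on low counts, DESeq2 1.42.0, the mouse as a block, the run of mouse numbers as a term, and leaving out 6 libraries that stand apart, the last chosen after the data were seen. Groups held over 5 mice, so single mice were not left out in turn. The fits were tested on simulated data.

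The genes and the lists beside them were chosen with earlier results of these data known. Named are the called gene with the largest rise and fall in each complex whose average log2 CPM was 3 or more, a fixed set of catalytic and core subunits, and the paralog sets. Others were named for their role or after their values were seen. Some values that the rule would name are not reported here. Across types, same-numbered libraries deviated together, with a median correlation of 0.284 against -0.051 for other numbers of the same group, and 58 of 450 pairs under 0.1. Genes not tested were Ndufa11b in all fraction and capture comparisons, Cox8b where no pS6 library entered, and Cox4i2 for pS6 against Camk2a in the cytosolic fraction.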

Additional observations from a re-analysis of the deposited data

Results flagged for a closer look

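In summed CPM by complex, 4 of 144 groups of 7 or 8 mice held a mouse far from the others, where chance alone gives about 1 in 20. In cytosolic Input, CFC SD mouse 19 had 1756.8 CPM for complex III, next to 1447 for the nearest mouse of its group, and 7101.6 CPM for complex V, next to 6336. In membrane Input, CFC SD mouse 29 had 3976 CPM for complex IV, next to 3397. In the membrane pS6 capture, NoCFC Sleep mouse 3 had 7393.7 CPM for complex IV, next to 6192.

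The difference between fractions depended on the capture for 56 members in the Camk2a capture against Input, for 64 in the pS6 capture against Input and for 36 in pS6 against Camk2a, each by an interaction term in edgeR's quasi-likelihood test. Calls were frequent among all genes too, whose shares are given with these interactions above. For pS6 against Camk2a, the share of members called was below that of all genes.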

How the results depend on the processing

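Of 39 counts of members called, all kept within 1.5 times of their value with relative log expression and with upper-quartile scaling, 38 with DESeq2, and 37 with no filter on low counts. DESeq2 called 1 member for SD in the cytosolic Camk2a capture instead of 0. Without a filter, CFC called 6 members instead of 13 in the membrane Camk2a capture, and the dependence of the fraction difference on pS6 against Input called 29 instead of 64. With the run as a term, CFC called 0 members in the membrane Camk2a capture and 0 in the membrane pS6 capture, where it had called 13 and 10. The cause was not tested. With the mouse as a replicate block, all 21 counts stayed within 1.5 times, and for the dependence of the fraction difference on the capture they were 61 (Camk2a against Input), 66 (pS6 against Input) and 40 (pS6 against Camk2a). It took no named gene's call away and added 2.

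Upper-quartile scaling changed the sign of 3 named values: Uqcrc2 for pS6 against Input in the cytosolic fraction, 0.0043 instead of -0.07; Uqcrc2 for the dependence on Camk2a against Input, 0.0076 instead of -0.10; and Cox5b for the dependence on pS6 against Camk2a, -0.012 instead of 0.17. That scaling moved the median of all genes by 0.21 (cytosolic) and 0.10 (membrane) in pS6 against Camk2a, and by -0.18 in the dependence on those captures. Depth limits the paralogs with few counts, and the number of mice per group limits differences between the training and sleep groups.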
